A study of Caenorhabditis elegans with 2 samples.

Results

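The protein-coding genes that encode the snRNP proteins and splicing factors of Caenorhabditis elegans under 6 gene-name prefixes were examined for chromatin occupancy by the RNA-binding protein RBM-26. All protein-coding genes of the Ensembl 115 annotation of WBcel235 whose symbol starts with snr, lsm, rsp, prp, rnp or uaf were taken, which gave 46 of the 19973 protein-coding genes on the nuclear chromosomes. They comprised 7 Sm genes (snr), 7 LSm genes (lsm), 8 SR protein genes (rsp), 13 pre-mRNA processing genes (prp), 9 RNP protein genes (rnp) and 2 U2AF genes (uaf). The rule for the choice used names alone, but it was made with earlier results of these data known. In ChIP-seq, DNA bound by a protein is pulled down with an antibody and sequenced, and stretches of the genome with an excess of reads are listed as peaks. Both libraries came from whole young adults of strain OP801, harvested at 66 hours after the cultures had been synchronised as first-stage larvae that hatched without food following bleaching. The worms carried the integrated fosmid transgene wgIs801, in which B0336.3 (rbm-26) is joined to TY1, EGFP and 3xFLAG tags, and unc-119(+) rescues their unc-119(tm4063) mutation. Chromatin sheared to 200 to 800 bp was precipitated with an antibody against GFP, so tagged RBM-26 from the transgene was measured and the endogenous protein was not. There was 1 group with 2 libraries, labelled as biological replicates 1 and 2, and no second condition, so every comparison below is between the members and all protein-coding genes, and none carries a p-value. A control experiment named in the labels was not analysed here, and the read depth of the libraries is unknown.

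Introns are removed by the spliceosome, which is assembled from small nuclear ribonucleoproteins (snRNPs), each a small nuclear RNA (snRNA) dressed in proteins. A ring of Sm proteins sits on the U1, U2, U4 and U5 snRNAs, a related ring of LSm proteins sits on U6, and U2AF and SR proteins mark splice sites and exons for these particles. In C. elegans the same machinery also joins a spliced leader to the 5' end of many mRNAs by trans-splicing, so that the annotated start of such a gene can be the splice acceptor and not the site of transcription initiation. RBM-26 is the worm relative of human RBM26 and RBM27, which are linked to nuclear RNA surveillance. The roles given below for single factors are those of their yeast or mammalian counterparts.

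The deposited conservative peak list, thresholded by the authors on the irreproducible discovery rate (IDR) between replicates, held 2416 merged regions on the nuclear chromosomes. A gene counted as bound if, of all protein-coding starts, its own was nearest to the summit of a region (the position of highest signal) and within 1000 bp. By this rule 11 of the 46 genes were called bound, which is 23.9% against 6.65% of all protein-coding genes. They were snr-4 and snr-6, lsm-6, lsm-7 and lsm-8, rsp-1 and rsp-6, prp-8, prp-39 and prp-40, and rnp-1, while neither U2AF gene was called. The list of replicate 1 gave 10 genes (21.7%, against 5.37% of all genes). The list of replicate 2 gave 9 (19.6%, against 4.43%). The same 7 genes, snr-4, snr-6, lsm-7, lsm-8, rsp-1, rsp-6 and prp-40, were called in both replicates, 15.2% against 3.28% of all genes. A summit lay within 1000 bp of the start, whichever gene it was assigned to, for 14 of the 46 (30.4%, against 8.47%), the further 3 being snr-1, rsp-2 and prp-19. Summits lay within 500 bp of the end of 7 (15.2%, against 6.78%), namely snr-1, snr-6, lsm-6, lsm-7, rsp-3, rsp-6 and rsp-8. The worm genome is compact, and a region beside 1 of these genes often lay at a neighbour too. The genes were not matched to others of like expression, which was not measured, so the part of expression in these shares was not tested.

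The distance from a start to the nearest conservative summit had a median of 3532 bp over the 46 genes, with quartiles of 550.2 and 26180 bp. For all protein-coding genes the median was 19090 bp, with quartiles of 6088 and 43980 bp. Summits lay within 5000 bp of 58.7% of the 46 starts and of 22.3% of all starts. The 46 genes were not uniformly close, since 17 of them (37.0%) had no conservative summit within 10000 bp, a distance exceeded by 65.8% of all genes. Of the genes without a summit near start or end, the nearest were rsp-7 at 1272 bp and rsp-4 at 1285 bp, and the most distant were rnp-3 at 80795 bp and prp-17 at 129454 bp.

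**Figure D1:**
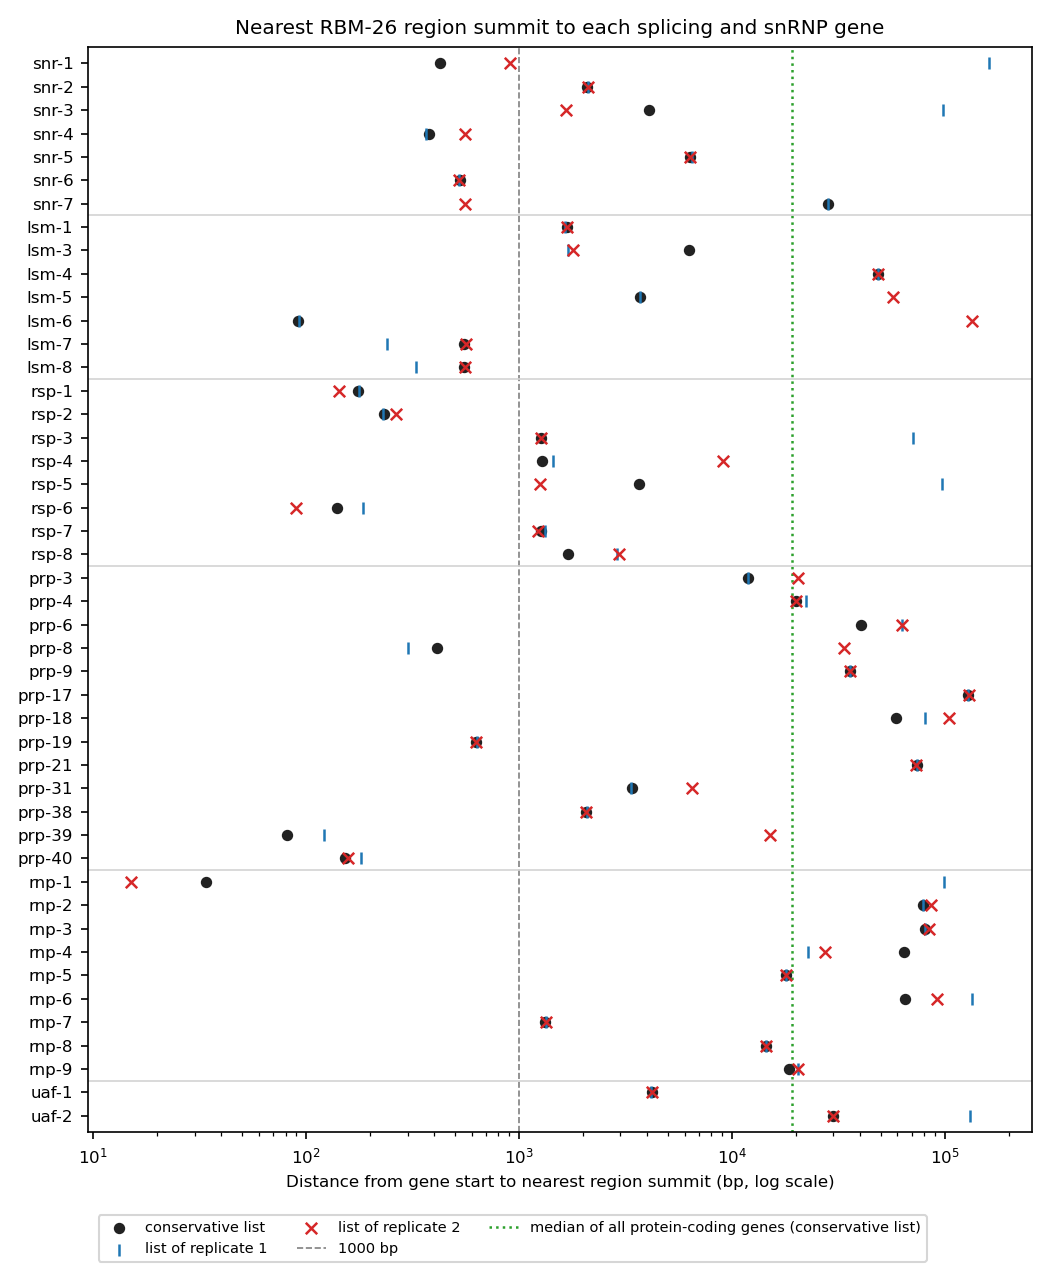
Distance in bp (log scale) from the start of each of the 46 genes to the nearest region summit in the conservative list (black circles), the list of replicate 1 (blue bars) and the list of replicate 2 (red crosses), by family. The dashed line marks 1000 bp and the dotted line the median of all protein-coding genes in the conservative list, 19090 bp; 14 black circles lie left of the dashed line, at least 1 from every family except U2AF.

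**Figure D2:**
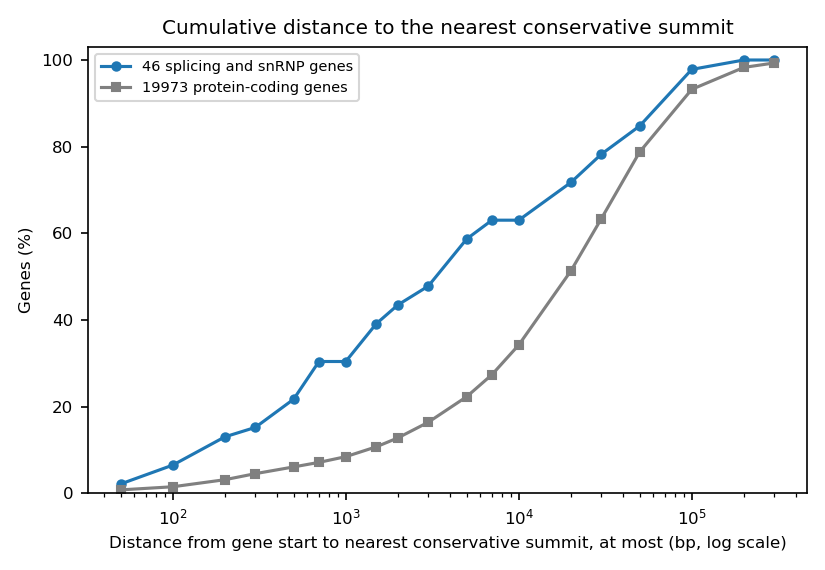
Percentage of genes (y axis) whose start lies at most the given distance in bp (x axis, log scale) from a conservative summit, for the 46 splicing and snRNP genes (circles) and all 19973 protein-coding genes (squares). The curve of the 46 genes reaches 58.7% at 5000 bp, where that of all genes reaches 22.3%.

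The Sm family encodes the ring of SmB, SmD1, SmD2, SmD3, SmE, SmF and SmG. Its members snr-4 (SmD2) and snr-6 (SmE) were called bound. The region at snr-4 (chromosome V, 11979867 to 11980599) had the highest signal of any of the 46 genes, 356, and ranked 105 of 2416 conservative regions. The signal is the authors' own value for a peak and is compared only within a list. In the ranked lists of the single replicates the region had a signal of 187 in replicate 1 and 170 in replicate 2, the highest among the 46 genes in each. The conservative summit stood 376 bp upstream of snr-4 in an exon of the non-coding gene C52E4.14. It was 19 bp from the snRNA gene C52E4.8, an RNA of the kind that Sm proteins bind. The replicate summits were 191 bp apart, 367 bp upstream of the start in replicate 1 and 558 bp upstream in replicate 2. They lay on opposite sides of the snRNA gene, that of replicate 2 past its far end. A summit here cannot be given to the protein-coding gene alone. It was the only region of the 17 near members with a small non-coding gene (snRNA, snoRNA, tRNA or miRNA) within 250 bp, against 10.6% of all conservative regions. When all such regions were left out, 10 of the 46 genes (21.7%) remained called, against 6.14% of all genes. The snRNA gene C52E4.8 (chromosome V, 11980118 to 11980261) is 144 bp long and identical over its length to T11F9.15 (11478148 to 11478291), which itself had a conservative summit 60 bp away with a signal of 125. The genes K03B8.10 and T11F9.16, also 144 bp long, differ from C52E4.8 by 1 base each. Their nearest conservative summits were 76851 bp and 9940 bp away. How reads that match more than 1 of these copies were placed is not given in the sources used here. The sequence from 50 bases before the conservative summit to the end of the snRNA gene is shown. It was chosen because it holds that summit, the strongest of the set, and the snRNA gene. The summit of replicate 2 lies outside it. The snRNA gene is in capitals (chrV:11980049-11980261, plus strand, RefSeq sequence of WBcel235).
snr-4: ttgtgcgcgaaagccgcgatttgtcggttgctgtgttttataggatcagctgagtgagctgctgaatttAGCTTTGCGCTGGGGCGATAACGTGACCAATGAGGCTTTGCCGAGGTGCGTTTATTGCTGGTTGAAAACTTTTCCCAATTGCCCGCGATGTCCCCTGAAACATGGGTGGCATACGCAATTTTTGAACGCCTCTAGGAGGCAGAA

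At snr-6 the region (chromosome III, 12428915 to 12429259) had a signal of 166, with 89.4 in replicate 1 and 78.0 in replicate 2, and the replicate summits were 4 bp apart. Its summit lay 526 bp downstream of the start and 69 bp past the end of this short gene, in the 3' UTR of the neighbouring pie-1, which encodes a germline zinc-finger protein. A summit past the gene's own end was found at snr-6 alone among the 11 bound genes, and at 4.21% of all bound genes. The gene snr-1 (SmD3) had conservative regions at both ends, and each was assigned to a neighbour. The first (chromosome IV, 17087312 to 17087931) lay 427 bp upstream of the snr-1 start and 184 bp from the start of snx-13. Its signal was 102 in the conservative list, with 58.0 in replicate 1 and 50.6 in replicate 2, and it was in the thresholded list of neither. The second (17088737 to 17089148) had its summit in the 3' UTR, 29 bp before the snr-1 end, and in a coding exon of Y116A8C.43, 66 bp from the start of that gene, to which it was assigned. Its signal was 163. Replicate 2, at 110, listed it, and replicate 1, at 58.8, did not. The SmG gene snr-7 was called bound in the list of replicate 2 and in the wider list of the series, but not in the conservative list. The best ranked region near its start had a signal of 30.5 in replicate 1 and 82.0 in replicate 2, and of 110 in the ranked list made from both replicates, where its −log10 IDR was 1.33 and the lowest value in the conservative list was 2. The remaining snr-2 (SmB), snr-3 (SmD1) and snr-5 (SmF) were in no thresholded list near their starts, with signals from 15.5 to 57.8 in replicate 1 and from 35.4 to 39.9 in replicate 2.

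LSm proteins form a nuclear ring that binds U6 snRNA, with LSm8 as its distinguishing subunit, and a cytoplasmic ring that acts in mRNA decapping, with LSm1 in the place of LSm8. Of the 7 genes, lsm-6, lsm-7 and lsm-8 were called bound and lsm-1, lsm-3, lsm-4 and lsm-5 were not. The region at lsm-7 (chromosome IV, 10933496 to 10934502) had a signal of 210, with 109 in replicate 1 and 105 in replicate 2, and it was listed in both. Its summit lay in a coding exon of this short gene, 549 bp downstream of the start and 138 bp before the end. The lsm-8 region (chromosome IV, 6325687 to 6326317) had a signal of 204, with 104 in replicate 1 and 120 in replicate 2. Its summit was 554 bp upstream of lsm-8 in the 3' UTR of sqd-1, whose end is 104 bp before the lsm-8 start on the same strand, and the replicate summits were 228 bp apart. Within each list the values of lsm-7 and lsm-8 were thus close to each other. The lsm-7 summit with 50 bases on either side is shown as the example of a summit inside a coding sequence, with the 11 bases at the summit in capitals (chrIV:10934001-10934101, plus strand).
lsm-7: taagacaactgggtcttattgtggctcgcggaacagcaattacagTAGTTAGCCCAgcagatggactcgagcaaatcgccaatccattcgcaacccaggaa

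The lsm-6 region (chromosome I, 1701302 to 1701503) had its conservative summit in the coding exon, 92 bp downstream of the start, with a signal of 135. It had 85.6 in replicate 1, which listed it, and 56.5 in replicate 2, which did not. The replicate summits were 244 bp apart, 93 bp downstream of the start in replicate 1 and 151 bp upstream in the ranked list of replicate 2. The lsm-6 start lies 233 bp after the end of ubc-3 on the same strand. For lsm-1, the decapping subunit, the best signal near the start was 25.8 in replicate 1 and 29.2 in replicate 2, against 104 and 120 for lsm-8, its nuclear counterpart. In each replicate the region with this lsm-1 value was nearer to the start of another gene. The region assigned to lsm-1 itself in the ranked list of replicate 1 had 12.6. The conservative lsm-8 summit, as given above, lay in the 3' UTR of sqd-1, so neither value is clearly the gene's own. The contrast is a description of 2 genes and was not tested. At lsm-3 the values were 61.9 in replicate 1 and 26.4 in replicate 2, at lsm-4 they were 20.4 and 20.1, and lsm-5 had a ranked region in replicate 1 only, at 18.8.

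**Figure D3:**
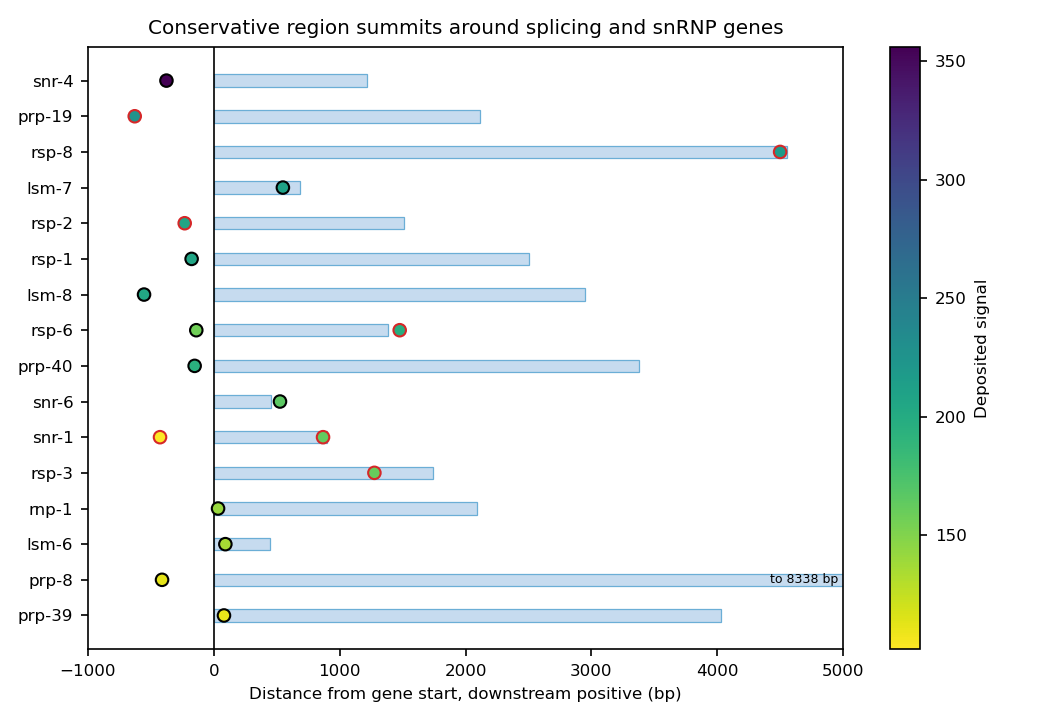
Conservative region summits (circles) at the 16 genes with a summit within 1000 bp of the start or 500 bp of the end, drawn in bp from the gene start with downstream positive; the blue bars are the genes, to scale, and prp-8 runs on to 8338 bp. Fill gives the deposited signal, from 102 to 356; black outlines mark summits by which the gene was called bound, red outlines those assigned to a neighbour or more than 1000 bp from the start. In the conservative list, 6 of the bound genes have the summit upstream and 5 downstream of the start.

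SR proteins bind exonic enhancers and help recruit U1 and U2AF to splice sites. Of the 8 genes, rsp-1 and rsp-6 were called bound, rsp-2 shared the rsp-1 region, and rsp-3 and rsp-8 had a summit at the end of the gene. At rsp-3, the counterpart of mammalian SRSF1, the region (chromosome III, 12686194 to 12686844) had a signal of 161. Its summit was in the 3' UTR 464 bp before the end, and replicate 2, at 102, listed it while replicate 1, at 56.1, did not. The rsp-8 region (chromosome III, 11830372 to 11831326), at a gene related to the splicing activator Tra2, had a signal of 218, with 74.2 in replicate 1 and 154 in replicate 2. It lay in the 3' UTR 57 bp before the end, beside the end of the convergent gene ntl-3, and its replicate summits were 275 bp apart. The signals of replicate 1 and replicate 2 come from separate lists and are not compared.

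The genes rsp-1 and rsp-2 are transcribed away from each other from starts 407 bp apart, and a single region lay between them (chromosome II, 11453014 to 11453373). Its signal was 207, with 135 in replicate 1 and 78.5 in replicate 2, and both replicates listed it. The summit stood 176 bp from rsp-1 and 231 bp from rsp-2. The region upstream of rsp-6, which encodes a protein of the SRSF3 type (chromosome IV, 7791223 to 7791529), had a signal of 157, with 66.1 in replicate 1 and 100.5 in replicate 2, and its summit was 139 bp before the start. A second region (7789530 to 7790017) stood 95 bp past the rsp-6 end, with a signal of 197, and was assigned to imp-3, 139 bp from its start. In the replicates' own lists that second region had 118 in replicate 1 and 85.1 in replicate 2. The stretch from 30 bases before the summit to the base before the start is shown for rsp-1 (chrII:11453156-11453361, plus strand) and rsp-6 (chrIV:7791230-7791398, minus strand). Both are shown because the summit stood between genes, upstream of the annotated start. Capitals mark the 11 bases at the summit and, for rsp-6, the letters TTTCAG of the trans-splice acceptor just before the start.
rsp-1: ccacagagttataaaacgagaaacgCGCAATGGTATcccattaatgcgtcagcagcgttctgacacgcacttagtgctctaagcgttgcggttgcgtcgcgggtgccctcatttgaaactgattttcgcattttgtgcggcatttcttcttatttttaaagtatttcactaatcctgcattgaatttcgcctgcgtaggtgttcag
rsp-6: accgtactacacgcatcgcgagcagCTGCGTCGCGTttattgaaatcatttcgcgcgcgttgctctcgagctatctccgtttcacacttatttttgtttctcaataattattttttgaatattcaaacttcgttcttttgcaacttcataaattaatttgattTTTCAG

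The other SR genes had weaker values. In the ranked lists rsp-4, the counterpart of SRSF2, had a best signal near the start of 38.97 in replicate 1 and 51.5 in replicate 2, and rsp-7 had 30.5 in replicate 1 and 27.4 in replicate 2. The gene rsp-5, with 28.3 and 39.9, has its start 404 bp from that of snr-3 on the other strand, and the best region of replicate 2 near both was the same.

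The genes named prp encode factors of different stages of splicing, and 3 of 13 were called bound. Of these, prp-40 and prp-39 are relatives of U1 snRNP components that act at the 5' splice site, and prp-8 encodes the large core protein of the U5 snRNP at the catalytic centre. The region at prp-40 (chromosome III, 9521782 to 9522068) had a signal of 195, with 92.7 in replicate 1 and 98.5 in replicate 2, and both listed it. Its summit was between genes, 152 bp upstream of the start, in the interval of 615 bp that separates prp-40 from the divergent clu-1. The regions at prp-8 and prp-39 were weaker, ranking 1907 and 1961 of 2416. At prp-8 (chromosome III, 8163652 to 8164477) the summit was 411 bp upstream with a signal of 112, and in the replicates' own lists the signal was 71.9 in replicate 1 and 45.2 in replicate 2. At prp-39 (chromosome V, 5682239 to 5682858) it was 81 bp downstream, in an intron, with a signal of 110, and the replicates' own values were 59.5 in replicate 1 and 54.5 in replicate 2. Replicate 1 listed both regions and replicate 2 listed neither. Sequence is shown for prp-40 from 30 bases before the summit to the base before the start (chrIII:9521893-9522074, plus strand) and for prp-8 over the summit with 50 bases on either side (chrIII:8163912-8164012, plus strand), as a stronger and a weaker case of an upstream summit. Capitals mark the 11 bases at the summit and, for prp-40, TTTCAG before the start.
prp-40: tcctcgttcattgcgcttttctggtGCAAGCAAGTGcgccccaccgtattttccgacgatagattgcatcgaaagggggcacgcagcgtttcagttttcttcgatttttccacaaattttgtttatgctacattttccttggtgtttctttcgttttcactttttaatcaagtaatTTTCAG
prp-8: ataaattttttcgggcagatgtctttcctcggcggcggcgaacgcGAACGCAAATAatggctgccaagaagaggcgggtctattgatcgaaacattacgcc

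The gene prp-19, whose product is the ubiquitin ligase of the complex that activates the spliceosome, had a region 628 bp upstream (chromosome III, 5172542 to 5172844) with a signal of 226, the second highest near any of the 46 genes. The replicates had 113 and 111, with summits 5 bp apart, but the region lay 47 bp upstream of the divergent gene K10D2.5 and was assigned to it. The other 9 prp genes had no conservative summit within 1000 bp of their start. Among them prp-31 of the U4/U6 snRNP had the best ranked signals, 39.3 in replicate 1 and 56.0 in replicate 2, but the region in the list made from both replicates, 644 bp upstream of prp-31, was assigned to the divergent gene mat-1, whose start was 17 bp from its summit. The U4/U6 gene prp-3 had 18.9 and 23.1, and the second-step factor prp-18 had 28.8 and 38.8. The SF3A subunit genes prp-9 and prp-21, whose products belong to the U2 snRNP, had 18.2 and 16.1, and 21.9 and 13.9. In prp-4 and prp-17 a ranked region near the start was listed in replicate 1 only. The tri-snRNP gene prp-6 had none in either replicate, the only member of the 46 without one.

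The rnp genes encode RNA-binding proteins that include U1 and exon-junction components, and 1 of 9 was called bound. At rnp-1 the region (chromosome V, 12191997 to 12192820) had its summit 34 bp downstream of the start, where the rnp-1 coding exon overlaps an intron of dpy-30. Its signal was 141, with 51.3 in replicate 1 and 94.1 in replicate 2, and replicate 2 alone listed it. The summit of replicate 2 was 15 bp upstream of the start, and that of replicate 1, in its ranked list, 76 bp downstream. The others had no conservative summit within 1000 bp of the start, among them rnp-7 (U1-70K), rnp-2 and rnp-3 (relatives of the stem-loop binding proteins of the U1 and U2 snRNPs), and rnp-4 (the exon-junction protein Y14). The best ranked signals near their starts ran from 15.2 in rnp-9 to 58.6 in rnp-5 in replicate 1, and from 18.9 in rnp-4 to 46.2 in rnp-8 in replicate 2. The U2AF genes, whose products read the 3' splice site, had similar values, with 26.7 in replicate 1 and 25.7 in replicate 2 for uaf-1 (the large subunit) and 50.9 and 43.6 for uaf-2 (the small subunit).

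The regions by which members were called had a median signal of 166, from 110 at prp-39 to 356 at snr-4, against 151 for all bound genes, and 7 of the 11 exceeded the latter. In the replicates' own lists the medians were 91.1 against 89.0 for replicate 1 and 98.5 against 96.4 for replicate 2. Conservative summits were upstream of the start in 6 of 11, against 66.1% of bound genes. At lsm-6 and rnp-1, whose conservative summits were downstream, the summit of replicate 2 was upstream. The 17 summits near members, with 50 bases on either side, had a median GC content of 48.5%, from 35.6 to 53.5%, and all conservative regions had 46.5%, with quartiles of 39.6 and 52.5%. Both replicates listed 10 of these 17 regions. Replicate 1 alone listed 3, replicate 2 alone listed 3, and the region upstream of snr-1 was listed by neither. The same counts over all conservative regions are not given here, so these describe the 17 regions only.

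The longer ranked lists, which also hold peaks that did not pass the IDR threshold, were examined for the rest of the family. The series has more than 1 ranked list made from both libraries. Here and throughout, the list made from both replicates is the one that holds every row of the conservative list. In it 35 of the 46 genes (76.1%) were called bound by the same rule, against 30.2% of all genes. The pooled ranked list called 33 of the 46, against 31.1% of all genes. There 40 members (87.0%) had a summit within 1000 bp of the start, against 35.3% of all genes. A ranked summit lay within 1000 bp of the start in both replicates for 40 of the 46 (87.0%), against 28.4%. It was found in replicate 1 only for lsm-5, prp-4, prp-17 and rnp-9, in replicate 2 only for rnp-8, and in neither for prp-6. The median distance to the nearest summit in the list made from both replicates was 341 bp for the 46 genes and 3515 bp for all genes. The best signal near the start had a median of 38.0 over 44 members in replicate 1 (15.2 to 187) and of 39.9 over 41 in replicate 2 (13.9 to 170), against 30.4 and 33.3 for all genes with such a region. Across the 40 genes with a value in both, Spearman's rho was 0.754, against 0.718 over 5664 genes; genes are not independent replicates, and some share a region. Of the 35 members not called bound, 32 had a ranked summit near the start in the list made from both replicates, and 29 of those had a −log10 IDR below 2 and did not reach the lowest value of the conservative list. The other 3, snr-1, rsp-2 and prp-19, had a region that passed and was assigned to a neighbour. The same counts over all genes not called bound are not given here, so these describe the members only. In the list made from both replicates, 43 of the 46 genes (93.5%) had a summit within 1000 bp of the start. Of these, 8 were not called because each such summit was nearer to another start, among them lsm-1, prp-17, prp-31, rnp-6, snr-2 and snr-5. Over all genes 34.4% had such a summit and 30.2% were called. A best signal near a start, as given for each family, is therefore not always the gene's own.

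**Figure D4:**
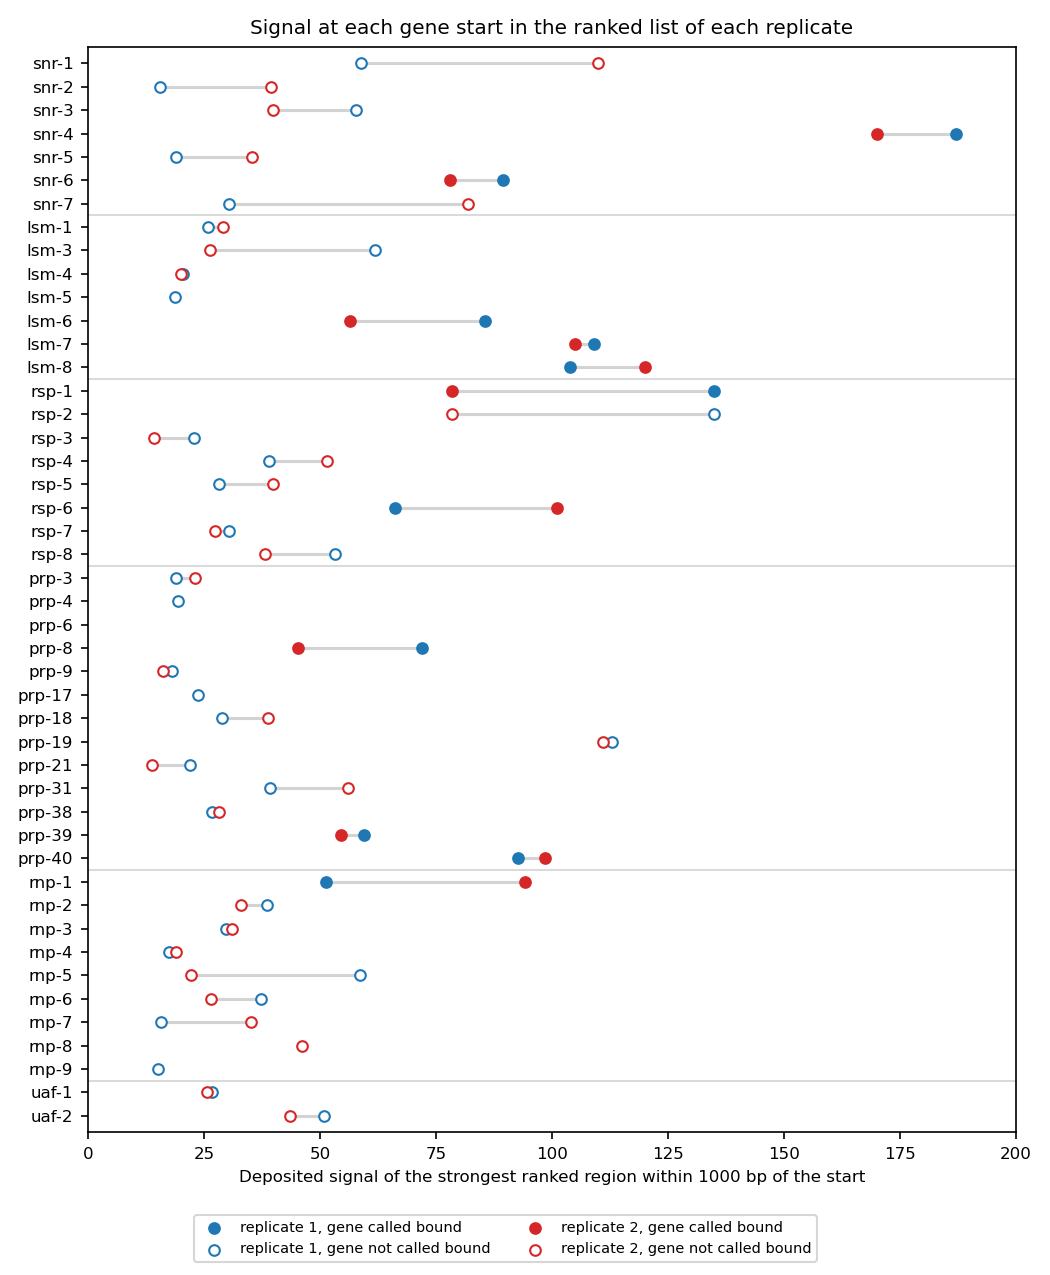
Deposited signal of the strongest ranked region within 1000 bp of the start of each gene in replicate 1 (blue) and replicate 2 (red), joined by a grey line; filled circles are genes called bound in the conservative list and open circles are not, and a missing circle means that no ranked region lay there. The pair for snr-4 stands apart at 187 and 170, and prp-6 has no circle. The open circles of prp-19, rsp-2 and snr-1 lie in the range of the filled ones through regions assigned to neighbours. Other open circles also lie in that range, among them lsm-3 at 61.9 in replicate 1 and snr-7 at 82.0 in replicate 2.

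The setting of the 46 starts was described next, since trans-splicing and gene spacing decide where an annotated start lies. The 6 letters TTTCAG, the end of the trans-splice acceptor, stood on the gene's strand in the 12 bases before the annotated start of 17 members (37.0%) and of 2716 of all genes (13.6%). Of the 17, 6 were called bound (snr-4, lsm-6, lsm-7, lsm-8, rsp-6 and prp-40), and of all genes with these letters 10.6% were. Starts within 500 bp of a divergent start were found for 16 members (34.8%) and for 9.25% of all genes. Of these 16, 2 (lsm-7 and rsp-1) were called bound, against 9.09% of all such genes. Starts within 500 bp after the end of a same-strand gene, as in operons, were found for 11 members (23.9%) and for 18.1% of all genes, and 4 of the 11 (lsm-6, lsm-8, prp-39 and rsp-6) were called bound, against 10.4% of all such genes. The members had a median gene length of 1941 bp and all genes 2027 bp. By chromosome, 12 members (26.1%) lay on chromosome III, which holds 13.2% of all genes, and 1, rnp-9, lay on X, which holds 13.7%.

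Genes of the same pathway with other names were counted by the same rule. Of 48 further spliceosome and snRNP genes found in the annotation, 11 (22.9%) were called bound in the conservative list, against 6.65% of all genes. The list of replicate 1 also called 7 of these 11 and that of replicate 2 called 4 of them. How many of all conservative calls each replicate's list kept is not given here. Counted over all 48 genes, each replicate's list called 7. Of all genes, the list of replicate 1 called 5.37% and that of replicate 2 called 4.43%. Highest among them were mog-4, a DEAH-box helicase of the spliceosome, at 272 with the summit 210 bp upstream, the U5 helicase gene snrp-200 at 230 with the summit 149 bp downstream, and plrg-1 at 212 with the summit 192 bp upstream. Of 21 genes for spliced-leader and snRNP assembly factors 2 (9.52%, near the 6.65% of all genes) were called, and both were also called in the list of each replicate. These were prmt-5, whose mammalian counterpart methylates Sm proteins, at 332 with the summit 96 bp downstream, and snpc-3.4, of the snRNA transcription complex, at 212 with the summit 41 bp upstream. Of 34 splicing regulators and SR or hnRNP genes 7 (20.6%, against 6.65%) were called in the conservative list. Of these 7, the list of replicate 1 also called 6 and that of replicate 2 called 5. Counted over all 34 genes, each replicate's list called 6, against 5.37% of all genes for replicate 1 and 4.43% for replicate 2. The highest were hrpu-1, an hnRNP U relative, at 265, the 3' end processing gene cfim-2 at 245 with a snoRNA gene 12 bp from the summit, and spk-1, an SR protein kinase, at 234. A ranked summit near the start in both replicates was found for 77.1%, 71.4% and 67.6% of these lists, against 28.4% of all genes and 87.0% of the 46 genes.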

How the data were processed

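RBM-26::GFP ChIP-seq was analysed from 2 libraries, 1 per labelled biological replicate. The authors deposited peak lists on ce11, which has the sequence of WBcel235. For the aligner, the peak caller and read depth, no statement is given in the sources used here, and no interval or detection floor was computed. Each row of the deposited lists has a signal, in the peak caller's own unit, and −log10 values, of which only the −log10 global IDR deposited by the authors was used. Overlapping rows were merged with Python 3.11.15, keeping the summit and signal of the strongest row. Summits were assigned to the nearest protein-coding start (Ensembl 115) and called within 1000 bp, and ends within 500 bp. Signals were read within a list only. No statistical test was made, since there is 1 group of 2 libraries. The assignment code was checked on planted summits. Alternatives were the wider list, each replicate alone, unmerged rows, stronger regions, other distances, other transcript starts and regions away from small non-coding genes.

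The members and gene lists were chosen with earlier results of these data known. Values are given for each gene called bound in the conservative or a replicate list, or with a conservative summit at its start or end. Of the other members, the 2 nearest and 2 most distant are named for distance, and ranked values are given as ranges or by family. Up to 3 bound genes are named per further list; names not in the annotation (9, 3 and 4 of the lists) were left out. Sequence is RefSeq WBcel235, shown for 6 bound genes in order of signal; lsm-8, snr-6 and rnp-1 were passed over because their windows hold UTR bases, and lsm-6, which ranks above prp-8, because no sequence is shown from its chromosome.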

Additional observations from a re-analysis of the deposited data

How the results depend on the processing

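Brackets give the share of all genes under the same setting. The count of 11 genes called bound (6.65%) was 12 with the wider list (7.27%). It was 9 with replicate 2 alone (4.43%) and 10 with replicate 1 alone (5.37%). With a start distance of 500 bp it was 8 (5.14%), and with 2000 bp it was 12 (8.37%). With only the regions at or above the median signal it was 7, all of them among the 11, against 3.54% of all genes. Starting from any annotated transcript it was again 11 (7.24%), with 10 of the 11 kept, snr-6 lost and rsp-8 gained. The count near starts, 14 (8.47%), was 12 with replicate 1 (6.81%) or replicate 2 alone (5.78%). Over the other settings it was 10 to 20, against 4.74 to 12.8% of all genes. The count near ends was 7 in the main list (6.78% of all genes) and 11 with the wider list (7.47%), which added snr-7, lsm-3, rsp-4 and rsp-5. With replicate 1 alone it was 7 (4.9%), of which 5 were shared, and with replicate 2 alone 9 (4.95%), of which 6 were shared. The median signal of bound members moved from 166 to 162 with the wider list. The count at small non-coding genes was 1 in each setting, against 0.451 to 1.11% of all genes. The cause of these changes was not tested. No paired analysis was possible because there is 1 group and no test. Unknown depth, a control not analysed here and peaks shared by close neighbours limit which gene a region can be given to.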

Other observations

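Several of the 46 genes neighbour another gene of the splicing pathway. Taking the 46 members and the 3 further lists together, 149 genes in all, 8 members (17.4%) have a start within 500 bp after the end of such a gene or within 1000 bp of its divergent start, against 115 of all genes (0.576%). The pairs rsp-1 and rsp-2, and snr-3 and rsp-5, are counted from both sides. Divergent starts within 500 bp were also more frequent among the members (34.8%) than among all genes (9.25%), which the comparison does not allow for. The relation was noticed in the annotation after the values were seen and is a description without a test. The rsp-1 and rsp-2 pair, 407 bp apart, has the shared region between its starts. The snr-3 and rsp-5 pair, 404 bp apart, has no conservative region between its starts, and the nearest summit was 4081 bp from snr-3 and 3677 bp from rsp-5.

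The start of prp-38, a tri-snRNP factor, lies 107 bp after the end of plrg-1, and the nearest conservative summit to it, 2070 bp upstream, was the one called at plrg-1 with a signal of 212. The start of rnp-7 lies 5 bp after the end of syf-2, and the nearest summit, 1330 bp upstream with a signal of 191, was assigned to K04G7.1, 227 bp from its start. The start of rsp-7 is 580 bp from that of snu-13, whose product binds U4 snRNA, and the nearest summit, 1272 bp upstream with a signal of 256, was assigned to lact-3. The start of rnp-3 lies 73 bp after the end of rnp-2, and no conservative summit lay nearer to it than 80795 bp.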
